A study of Homo sapiens with 3 samples.

Results

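The HOX genes of SKOV-3 cells with less of the histone methyltransferase G9a were examined by cluster and by position number. Members were the genes whose probe sets carry a single symbol made of HOXA, HOXB, HOXC or HOXD and digits alone. The rule gave 28 HOX genes of the 39 that RefSeq lists, among 19775 genes in all, and the remaining 11 were not analysed here. The HOXA cluster contributed 1 gene, HOXB 10, HOXC 9 and HOXD 8.

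SKOV-3 cells come from an ovarian cancer. They stably carried G9a shRNA1 or G9a shRNA2, each directed at EHMT2, the gene for G9a, or a control shRNA that targets luciferase (Luc shRNA), and all 3 cell populations had passed a puromycin selection. Each was measured on 1 Affymetrix whole-genome array, and both comparisons share the Luc shRNA array. There is thus no replicate of any condition, no test stands behind the changes given here, each signal is a single array's, and precision is limited by having 3 arrays. A signal is the linear MAS5 intensity of a probe set, and a change is the log2 ratio of a G9a shRNA array to the Luc shRNA array.

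HOX genes encode homeodomain transcription factors that give cells their position along the body axis. In mammals they lie in clusters on different chromosomes, and within a cluster a gene's number follows its place: low numbers act toward the head, high numbers toward the tail and the limb ends. Genes with the same number in different clusters are paralogues. Polycomb proteins keep HOX genes silent and Trithorax proteins keep them active, while G9a places methyl groups on H3K9, a mark of silent genes. In the reproductive tract and its tumours, HOX genes are known as regulators of tissue identity.

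The medians of the 3 arrays lay between 11.7 and 12.3 and their 2% trimmed means between 105 and 115. EHMT2 was lower with both shRNAs at its brightest probe set, with signals of 29.7 on the G9a shRNA1 array, 79.2 on the G9a shRNA2 array and 182 on the Luc shRNA array. Another EHMT2 probe set read 23.9, 16.4 and 27.6 in that order, and the last stayed under the filter, which asks that the highest of the 3 signals reach the median of all values. Of 12 epithelial and ovarian carcinoma markers, 10 reached the median of all signals on each array. Their summed signal was 9248 with G9a shRNA1, 10747 with G9a shRNA2 and 7718 with Luc shRNA. MUC16 and MSLN, a pair of ovarian tumour antigens in that list, were under the filter. Of 4 fibroblast and smooth muscle markers, 0, 1 and 2 reached the median on the same arrays, with sums of 30.9, 27.3 and 47.5, and DCN and ACTA2 were the pair past the filter. Leukocyte markers summed to between 19.3 and 28.4, with PTPRC, CD3E and CD14 under the filter. ITGAM, the leukocyte marker past it, read 13.4 and 13.7 in the G9a arrays and 11.0 with Luc shRNA. Endothelial markers summed to between 20.3 and 38.4, with VWF and CDH5 under the filter. PECAM1, the endothelial marker past it, read 29.9 and 28.5 in the G9a arrays and 15.4 with Luc shRNA. Mesothelial markers summed to 90.2 with G9a shRNA1, 112 with G9a shRNA2 and 116 with Luc shRNA, with none of the 3 markers under the filter. The 3′ to 5′ signal ratio of the β-actin control probe sets was 1.83 and 1.47 on the G9a arrays and 3.68 on the Luc shRNA array, and that of GAPDH lay between 1.12 and 1.15. What part these differences between the arrays have in the HOX values was not tested, and in bulk RNA fewer expressing cells and less RNA per cell cannot be told apart.

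The HOXB genes from HOXB2 to HOXB9 and HOXD8 reached the 75th percentile of all signals on at least 1 array, and the other HOX genes did not. A gene was taken at its single-symbol probe set of highest mean log2 signal and kept when its highest signal reached the median of all values, 11.96, which retained 13192 genes. Of the 28 HOX genes, 20 passed and 8 did not: HOXB1, HOXC4, HOXC5, HOXC8, HOXC10, HOXC12, HOXC13 and HOXD12. By cluster, 1 of 1 HOXA, 9 of 10 HOXB, 3 of 9 HOXC and 7 of 8 HOXD genes passed. The number of HOX genes that reached the median was 17 with G9a shRNA1, 17 with G9a shRNA2 and 19 with Luc shRNA, and 15 reached it on all 3 arrays. A stricter filter, at the 75th percentile of all values (89.7), retained 8348 genes and 9 HOX genes. HOXB4, HOXB5, HOXB9 and HOXD8 passed it through the other arrays, since their G9a shRNA1 signals lay below 89.7.

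**Figure D1:**
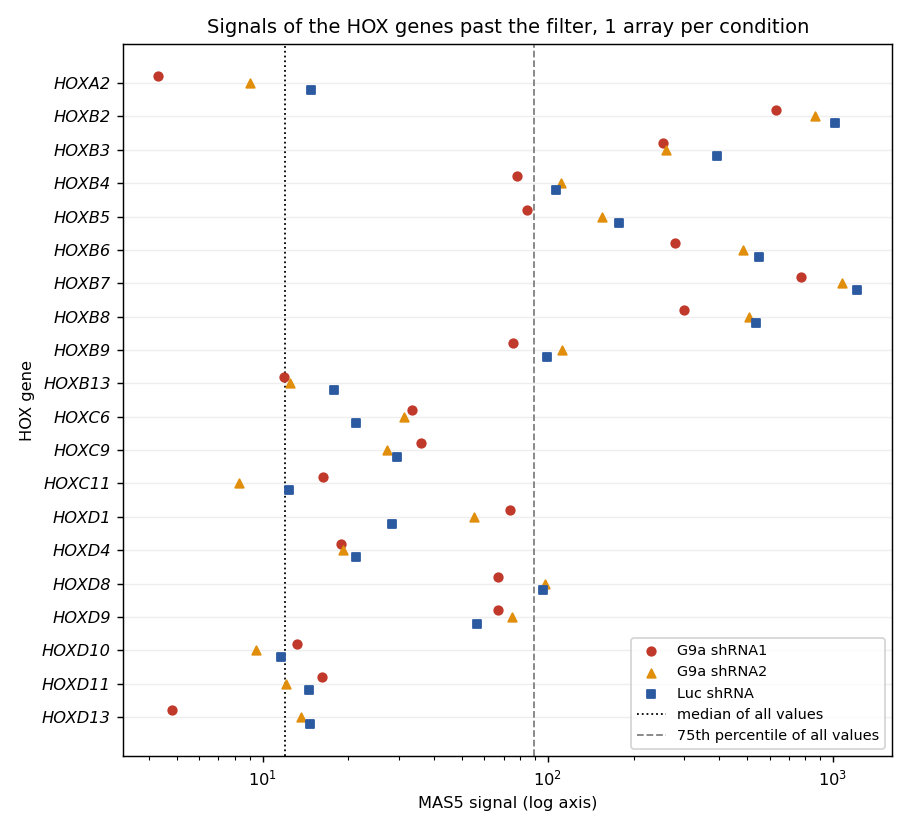
Signals of the 20 HOX genes past the filter (rows) on the log-scaled MAS5 signal axis, 1 point per array, with the G9a shRNA1, G9a shRNA2 and Luc shRNA arrays as circle, triangle and square. From HOXB2 to HOXB9 the G9a shRNA1 circle is the lowest of the 3 in every row, while the HOXD1 circle and triangle, at 73.9 and 55.3, lie above the Luc shRNA square at 28.4.

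No HOX gene of the 20 past the filter changed by more than 2-fold with both shRNAs, in a background where 2.57% of all genes past the filter were higher by this rule and 1.66% lower. When a single shRNA past 2-fold was enough, provided that the other did not oppose it, HOXD1 was higher, against a background of 5.26%, and HOXA2, HOXB5 and HOXD13 were lower, against 5.59%. On side alone, HOXC6, HOXD1 and HOXD9 were higher with both shRNAs (3 of 20, against 44% of all genes past the filter), and 10 of 20 HOX genes were lower with both, against 30.8%. Those 10 were HOXA2, HOXB2, HOXB3, HOXB5, HOXB6, HOXB7, HOXB8, HOXB13, HOXD4 and HOXD13. HOXA2 passed the filter through the Luc shRNA array alone, so its being lower with both was fixed by the filter. HOXB13 and HOXD13 were under the median on the G9a shRNA1 array, so their being lower with that shRNA was fixed too. With signals under the median raised to it, HOXB5 alone kept the lower call past 2-fold. The other 7 of the 20 lay on different sides with the 2 shRNAs. The median log2 fold change of the 20 was -0.49 with G9a shRNA1 and -0.16 with G9a shRNA2, beside medians of 0.00 and 0.12 over all genes past the filter.

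The HOXB genes made up 9 of the 13 HOX genes lower with G9a shRNA1, 7 of the 14 lower with G9a shRNA2 and 7 of the 10 lower with both. They were 9 of the 20 HOX genes past the filter, so the count with G9a shRNA2 is near their share. Of all 13192 genes past the filter, 6568 were lower with G9a shRNA1 and 4883 with G9a shRNA2. Among the 9 HOXB genes past the filter the median log2 fold change was -0.66 with G9a shRNA1 and -0.18 with G9a shRNA2. Over the 11 HOX genes of the other clusters the medians were 0.18 and -0.11. With the stricter filter, 6 of 9 HOX genes were lower with both shRNAs, all from HOXB, where 28.9% of all genes past that filter were. HOXB genes are 8 of these 9, beside HOXD8, so cluster and brightness cannot be told apart here. The same 6 of 9 were past 1.5-fold with at least 1 shRNA and lower with the other, against a background of 7.16%. These 6 genes were HOXB2, HOXB3, HOXB5, HOXB6, HOXB7 and HOXB8. The pairing of this filter with 1.5-fold was chosen after seeing the data, so nothing is read from that count. At 2-fold, 1 of the 9, HOXB5, was lower by this rule, as were 168 of all 8348 genes. HOXB5 was under this filter on the G9a shRNA1 array, so its being lower with that shRNA was fixed by the filter. The 7 HOXB genes lower with both remained 7 after centring on the medians, and 8 of 9 HOXB genes were lower with both after quantile normalization or scaling to equal trimmed means, where HOXB4 joined them. Quantile normalization moved the median of all genes with G9a shRNA2 from 0.12 to 0.01, and the changes of HOXB4 and HOXD8 with that shRNA changed sign with it.

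**Figure D2:**
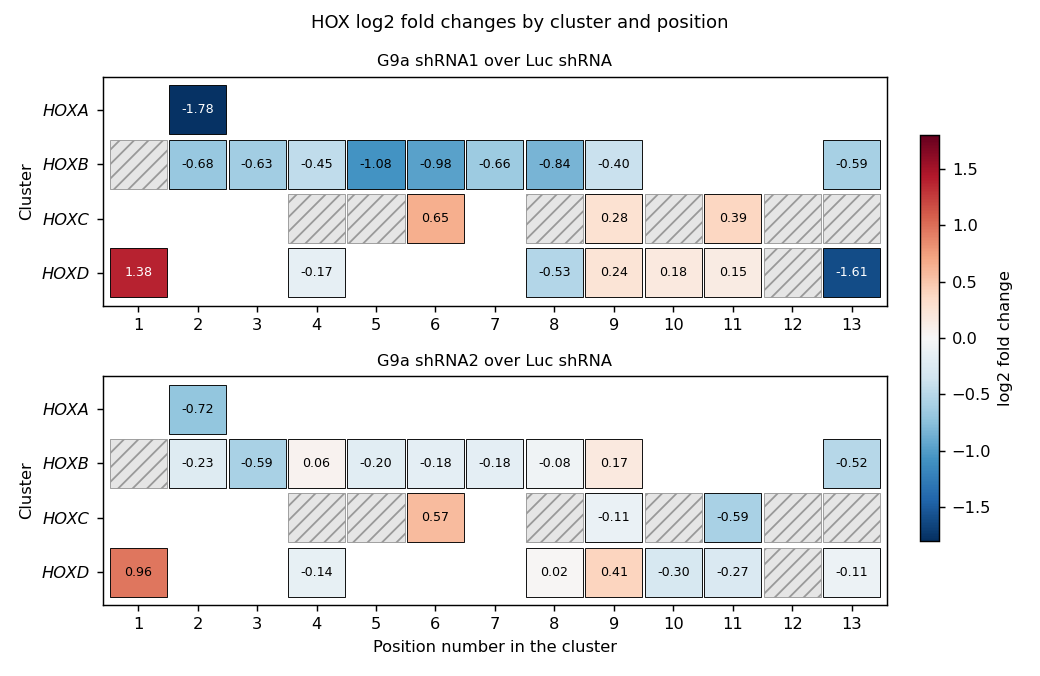
Log2 fold changes of HOX genes by cluster (rows) and position number (columns), for G9a shRNA1 over Luc shRNA (top) and G9a shRNA2 over Luc shRNA (bottom), with color and printed value giving the change. Hatched cells are genes under the filter and blank cells are positions with no gene analysed here. The HOXB row is below 0 throughout in the top panel, between -1.08 and -0.40, and between -0.59 and 0.17 in the bottom panel.

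In the anterior part of the HOXB cluster, HOXB2, which patterns the hindbrain in mouse, had signals of 634 in the G9a shRNA1 array and 865 in the G9a shRNA2 array, against 1017 with Luc shRNA. Both G9a arrays were below the control, with log2 fold changes of -0.68 and -0.23. HOXB3, a hindbrain gene that also acts in blood progenitors, read 253 and 260 in the G9a arrays and 391 in the Luc shRNA array. Here the G9a arrays lay close together, at 64.7% and 66.5% of the control, and HOXB3 was the only one of the stricter set past 1.5-fold with both shRNAs. HOXB4, known for expanding blood stem cells, had signals of 78.1, 112 and 107 on the G9a shRNA1, G9a shRNA2 and Luc shRNA arrays. Only the G9a shRNA1 value was below the control, at a log2 fold change of -0.45.

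Among the central genes, HOXB5, a regulator of enteric neural crest, had signals of 84.5 in the G9a shRNA1 array and 155 in the G9a shRNA2 array, against 178 with Luc shRNA. Its log2 fold change of -1.08 with G9a shRNA1 was past 2-fold and that of -0.20 with G9a shRNA2 was not. HOXB6 read 280 and 486 in the G9a arrays and 551 in the Luc shRNA array, and its value with G9a shRNA1, 50.8% of the control, was just short of 2-fold. HOXB7, described in ovarian cancer as an inducer of basic fibroblast growth factor, read 775 and 1080 in the G9a arrays and 1220 in the control array. It was lower with both, at log2 fold changes of -0.66 and -0.18. HOXB8, which blocks myeloid differentiation when overexpressed, had signals of 300 in the G9a shRNA1 array and 509 in the G9a shRNA2 array, against 537 with Luc shRNA. The G9a shRNA2 signal was 94.7% of the control. Of the posterior genes, HOXB9 read 75.4, 112 and 99.2 on the G9a shRNA1, G9a shRNA2 and Luc shRNA arrays, so that the shRNAs lay on different sides of the control. HOXB13, a prostate and hindgut gene that lies apart from the rest of the cluster, read 11.9 and 12.5 in the G9a arrays and 17.9 in the Luc shRNA array, close to the filter.

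The G9a shRNA1 array was the lower of the 2 G9a arrays at all 9 HOXB genes past the filter. This order was common: 68% of all genes past the filter had it, and 79.4% of the 2413 genes past the stricter filter and lower with both shRNAs, to which 6 of the 9 belong. The log2 difference between the G9a arrays was -0.88 for HOXB5, -0.79 for HOXB6 and -0.77 for HOXB8, and -0.04 for HOXB3. Over the 14682 probe sets past the stricter filter the SD of this difference was 0.25, and 95% lay within 0.58 in either direction, and true differences between the shRNAs are part of that spread. Over the 15764 dimmer probe sets past the filter the SD was 0.86 and the 95% limit 1.94, and the changes of the dimmer HOX genes are to be read against that limit. With G9a shRNA2 the changes of HOXB2, HOXB5, HOXB6, HOXB7 and HOXB8, from -0.23 to -0.08, lay well within 0.58, and that of HOXB3, -0.59, was just past it.

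**Figure D3:**
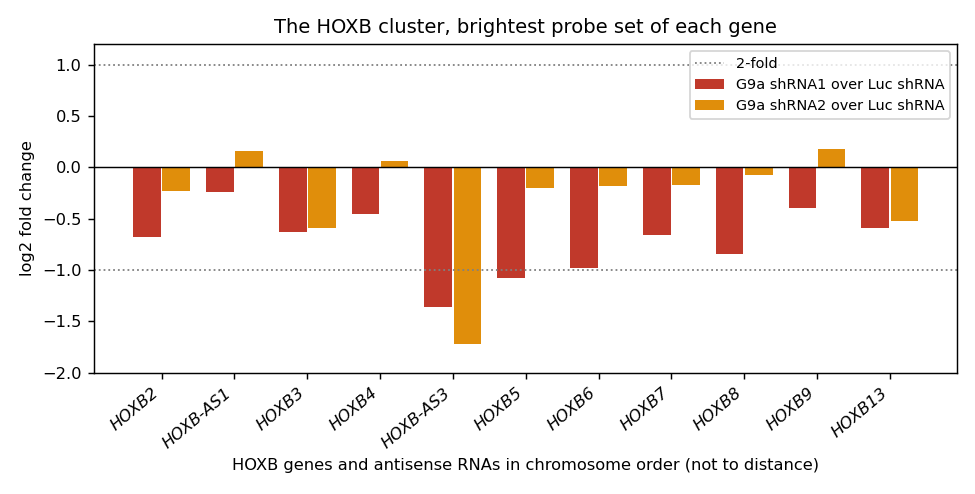
Log2 fold changes (vertical axis) of the HOXB genes and 2 antisense RNAs past the filter, in chromosome order and not to distance, with 1 bar per G9a shRNA over the shared Luc shRNA array. Each bar is the probe set used for that gene or RNA, and HOXB8 and HOXB-AS1 each have another that was higher with both shRNAs. Every G9a shRNA1 bar points down, and the HOXB-AS3 bars, at -1.36 and -1.72, are the only pair past the 2-fold lines.

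HOXD1, which in mouse shapes the connections of pain-sensing neurons, was the one HOX gene past 2-fold upward with any shRNA at the probe set used for the gene. Its signals were 73.9 with G9a shRNA1 and 55.3 with G9a shRNA2, against 28.4 with Luc shRNA. Both G9a arrays were above the control, 2.60-fold and 1.95-fold, and the log2 fold changes of 1.38 and 0.96 lie within the limit of 1.94 given for dim probe sets. Another HOXD1 probe set stayed under the filter on all arrays. Promoters were taken from RefSeq (GRCh38.p14), 250 bases before to 50 bases after the start of transcription, in which 11 of the 28 HOX genes were matched. Those shown are of HOXD1, the gene that was higher, of HOXD8, the HOXD gene past the stricter filter, and of HOXB1, the single HOXB gene matched, itself under the filter. Capitals mark CG dinucleotides, and each sequence reads 5′ to 3′ along its gene.

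HOXD1, chr2:176188418-176188717, plus strand: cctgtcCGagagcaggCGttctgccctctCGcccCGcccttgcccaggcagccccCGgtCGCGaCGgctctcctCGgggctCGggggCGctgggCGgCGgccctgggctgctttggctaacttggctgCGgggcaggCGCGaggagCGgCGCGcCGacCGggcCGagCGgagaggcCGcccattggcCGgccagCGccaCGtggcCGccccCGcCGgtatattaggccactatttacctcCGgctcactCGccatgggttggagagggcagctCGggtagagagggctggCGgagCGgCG
HOXD8, chr2:176129455-176129754, plus strand: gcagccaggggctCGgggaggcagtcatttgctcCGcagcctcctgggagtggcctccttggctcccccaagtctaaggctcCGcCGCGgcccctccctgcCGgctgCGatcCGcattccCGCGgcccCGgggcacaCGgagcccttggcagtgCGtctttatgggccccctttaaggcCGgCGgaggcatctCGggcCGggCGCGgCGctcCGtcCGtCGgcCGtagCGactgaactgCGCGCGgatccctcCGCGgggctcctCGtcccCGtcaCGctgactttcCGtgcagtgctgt
HOXB1, chr17:48530962-48531261, minus strand: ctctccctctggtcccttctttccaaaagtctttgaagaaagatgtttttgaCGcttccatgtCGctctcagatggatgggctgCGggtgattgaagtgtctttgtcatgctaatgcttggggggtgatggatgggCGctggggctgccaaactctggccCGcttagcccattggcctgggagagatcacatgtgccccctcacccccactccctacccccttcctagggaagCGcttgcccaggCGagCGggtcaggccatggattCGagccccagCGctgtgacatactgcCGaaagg

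The HOXD1 promoter holds 36 CG dinucleotides and that of HOXD8 holds 34, and 12.7% and 15.6% of all 35116 promoters hold at least as many. HOXB1 holds 11, a number reached by 54.7% of promoters, where the median of all promoters is 14. The letters TGATNNAT, the form of site at which PBX and HOX proteins bind together, were searched on both strands. They occur in the promoters of HOXA2, HOXB1 and HOXD11, 3 of 11, and in 7.40% of all promoters. HOXC4 and HOXC5 have the same promoter window, which is counted for each of them among the 11. TATAAA, searched along the gene's own strand alone, occurs in the promoter of HOXD13 and in 7.33% of all promoters. Promoters of HOXB2 to HOXB9 were not used here.

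Elsewhere in the HOXD cluster, HOXD8 had signals of 66.7 in the G9a shRNA1 array and 97.5 in the G9a shRNA2 array, against 96.2 with Luc shRNA, so that only the G9a shRNA1 array stood apart from the control. HOXD9, a gene of the lower spine and limb, was higher with both shRNAs by less than 1.5-fold, with log2 fold changes of 0.24 and 0.41. HOXD4, a gene of the hindbrain and neck, had -0.17 and -0.14. HOXD10 and HOXD11, which pattern the lower spine and the limb, lay on different sides, at 0.18 and -0.30 for HOXD10 and at 0.15 and -0.27 for HOXD11. HOXD13, which shapes the digits, read 4.81 with G9a shRNA1 and 13.6 with G9a shRNA2, against 14.7 with Luc shRNA. Its log2 fold change of -1.61 with G9a shRNA1 rests on a signal under the median of all values and is -0.29 when signals under that median are raised to it. The medians of the 7 HOXD genes were 0.15 and -0.11.

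HOXA2, the only HOXA gene analysed here, a selector gene of the pharyngeal arches, read 4.31 with G9a shRNA1 and 9.02 with G9a shRNA2, against 14.8 with Luc shRNA. HOXA2 passed the filter through the Luc shRNA array alone, and the log2 fold changes of -1.78 and -0.72 both become -0.31 when such signals are raised to it. Of the HOXC genes, HOXC6, a gene of the thorax and mammary gland, was higher with both shRNAs, with signals of 33.3 and 31.4 in the G9a arrays and 21.2 in the Luc shRNA array. Its log2 fold changes of 0.65 and 0.57 were near each other. HOXC9, which sets thoracic motor neuron identity in mouse, had 0.28 and -0.11, and HOXC11 had 0.39 and -0.59. The remaining 6 HOXC genes were not above the median of all values on any array.

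**Figure D4:**
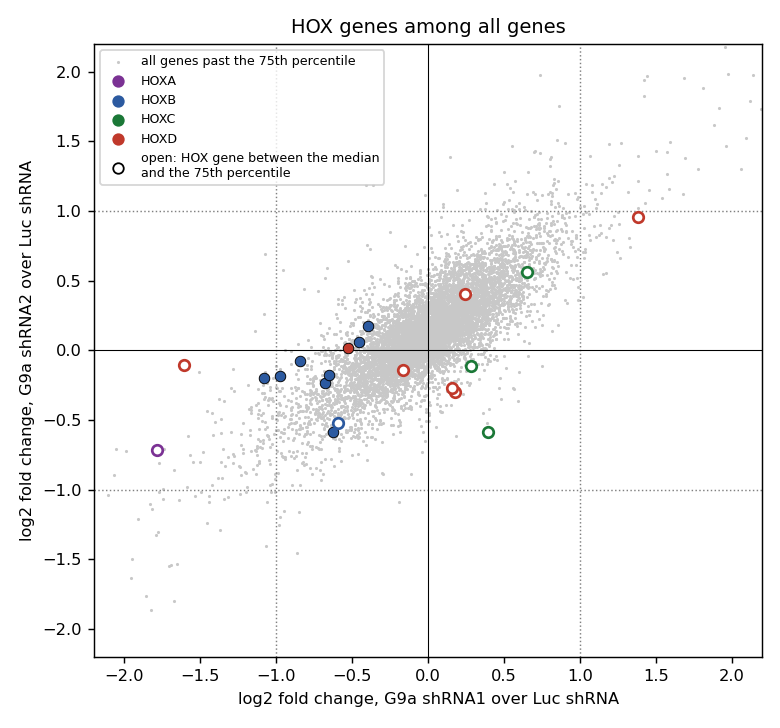
Log2 fold change with G9a shRNA1 (horizontal axis) against that with G9a shRNA2 (vertical axis), both over the same Luc shRNA array, with small gray points for the genes past the 75th percentile and within 2.2 of 0, and larger points for the 20 HOX genes. Filled HOX points are past that percentile and open ones are not. The filled HOXB points lie left of 0, between -1.08 and -0.40, and HOXD1 lies at 1.38 and 0.96.

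By position number, genes 1 to 4 had a median log2 fold change of -0.54 (G9a shRNA1) and -0.19 (G9a shRNA2) (6 of 8 past the filter), genes 5 to 8 had -0.75 and -0.13 (6 of 8), and genes 9 to 13 had 0.17 and -0.19 (8 of 12). HOXB genes make up 3, 4 and 2 of these, so position and cluster cannot be told apart in these medians. Paralogues did not share a direction throughout. HOXB6 and HOXC6 lay on opposite sides with both shRNAs. HOXB9, HOXC9 and HOXD9 had log2 fold changes of -0.40, 0.28 and 0.24 with G9a shRNA1 and of 0.17, -0.11 and 0.41 with G9a shRNA2. HOXA2 and HOXB2 were both lower with both shRNAs, as were HOXB13 and HOXD13. The filter fixed the direction of HOXA2, and that of HOXB13 and HOXD13 with G9a shRNA1, so these pairs are no evidence of a shared direction. HOXB8 and HOXD8 were both lower with G9a shRNA1, at -0.84 and -0.53.

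Probe sets of the same gene gave like directions for most but not all HOX genes. Of 44 HOX probe sets, 29 passed the filter, and 8 genes had more than 1 that passed. Of the 17 HOXB probe sets past the filter, 16 were lower with G9a shRNA1, where 47.3% of all 30446 probe sets past the filter were. With both shRNAs 13 were lower, where 29.6% were, and several of the 17 belong to the same gene. A HOXB6 probe set (8.09 and 10.3 in the G9a arrays, 13.4 with Luc shRNA) and a HOXB13 probe set given below passed through Luc shRNA alone. The filter thus fixed their direction, and that of a HOXB8 probe set that passed through the G9a arrays alone. The HOXB13 probe set used for the gene read 11.85 with G9a shRNA1, under the median, so its side with that shRNA was fixed too. Another HOXB5 probe set read 82.6 with G9a shRNA1 and 125 with G9a shRNA2, against 184 with Luc shRNA, so that G9a shRNA1 was again past 2-fold. The 3 HOXB7 probe sets had log2 fold changes between -0.83 and -0.62 with G9a shRNA1, and between -0.38 and -0.18 with G9a shRNA2. HOXB8 was the exception among HOXB genes: another probe set read 24.8 and 24.5 in the G9a arrays and 10.03 in the Luc shRNA array, higher by 1.30 and 1.29. The HOXB8 probe set used above has a suffix for probes that can match several transcripts, as do those of HOXB5, HOXB6, HOXB7, HOXC6 and HOXD1, and which transcripts they share was not tested. Another HOXB13 probe set read 2.93 and 3.42 in the G9a arrays against 21.9 with Luc shRNA, and another of HOXD4 read 1.68 and 8.31 against 12.7. Both G9a signals of each are under the median of all values.

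Of 11 noncoding RNAs of the HOX clusters, 6 passed the filter, with medians of -0.68 (G9a shRNA1) and -0.41 (G9a shRNA2), and 1 was lower past 2-fold with both, against 1.66% of all genes past the filter. HOXB-AS3, which RefSeq lists between HOXB4 and HOXB5, read 18.3 with G9a shRNA1 and 14.2 with G9a shRNA2, against 47.0 with Luc shRNA. Its other probe sets past the filter gave -0.28 and 0.29, -1.22 and -0.40, and -2.19 and -2.69, so 3 of 4 were lower with both. The last of these read 3.94 and 2.79 in the G9a arrays and 17.95 with Luc shRNA. It passed through Luc shRNA alone, so the filter fixed its direction. HOXB-AS1, listed between HOXB2 and HOXB3, had -0.24 and 0.16, while another of its probe sets, chosen after its values were seen, was higher past 2-fold with both shRNAs, at 34.02 and 32.98 in the G9a arrays and 16.38 in the Luc shRNA array. In the HOXD cluster, next to HOXD1, HAGLR had log2 fold changes of -0.99 and -0.46 and HAGLROS -0.69 and -1.03. HOXD-AS2, beside HOXD8, had -0.67 and -0.37. HOXD1 and its noncoding neighbors HAGLR and HAGLROS thus lay on opposite sides of the control with both shRNAs at the probe sets used. Their changes all lie within the limit of 1.94 given for dim probe sets. Another HAGLR probe set past the filter gave -0.21 and -1.19, and a further one was under it. HOTAIR, a noncoding RNA of the HOXC cluster, was under the filter, as was HOXC-AS3 of the same cluster.

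Of 15 measured genes that flank the clusters, 11 passed the filter and 10 the stricter one, with medians of -0.11 and 0.03. With either shRNA 0 were past 2-fold, where 12.8% of all genes past the filter and 3.8% past the stricter filter were, so a count of 0 among 11 is near the background. The 4 furthest from 0 by the smaller of the changes were ATF2 (-0.41 and -0.68) and LNPK (-0.34 and -0.41) near HOXD, CALCOCO1 (0.34 and 0.38) near HOXC and SKAP2 (0.22 and 0.29) near HOXA.

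The TALE homeodomain proteins, of the PBX, MEIS, PKNOX and TGIF families, include the partners that bind DNA beside HOX proteins. Of 10 measured, 9 passed the filter, with medians of -0.13 and -0.02, and 1 was higher past 2-fold with both shRNAs, against 2.57% of all genes past the filter. That was MEIS3, which read 30.2 with G9a shRNA1 and 23.7 with G9a shRNA2, against 7.87 with Luc shRNA, a control signal under the median of all values. MEIS1, a partner of HOX proteins in leukemia, read 20.7 and 44.7 in the G9a arrays and 70.1 in the Luc shRNA array, lower by more than 2-fold with G9a shRNA1 alone, and another MEIS1 probe set gave -0.82 and -0.44. PBX2 was higher, at 0.57 and 0.77, and PBX4 lower, at -0.38 and -0.38.

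The regulators that hold HOX genes silent or active stayed within 2-fold at the probe set used for each gene. All 24 Polycomb genes measured passed the filter and 21 the stricter one. With either shRNA 0 were past 2-fold, which is near the share of 3.8% among all genes past the stricter filter. Their medians were 0.07 and 0.20, against 0.00 and 0.12 for all genes. The 4 furthest from 0 were PCGF1 (0.32 and 0.82), PCGF6 (0.25 and 0.60), EED (0.25 and 0.46) and PCGF5 (-0.23 and -0.26). The Trithorax list and other HOX activators had medians of 0.19 and 0.15 over 20 genes, 18 of them past the stricter filter, again with 0 past 2-fold with either shRNA. KDM6B, which removes the methyl mark that Polycomb places, came close, with signals of 118 in the G9a shRNA1 array and 118 in the G9a shRNA2 array, against 60.5 with Luc shRNA. All 5 of its probe sets were higher with both shRNAs, by between 0.92 and 4.69 on the log2 scale, the 2 furthest from 0 against Luc shRNA signals of 1.40 and 0.88, near the background. DOT1L, a histone methyltransferase that sustains HOX expression in leukemias with KMT2A fusions, had 0.88 and 0.96 at one probe set and 1.27 and 1.16 at another. SETD1A had 0.50 and 0.61, and MLLT10, a partner of DOT1L, 0.35 and 0.36. GMNN, CREBBP and EP300, whose products contact HOX proteins, lay between -0.11 and 0.15.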

How the data were processed

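RNA of SKOV-3 cells with G9a shRNA1, G9a shRNA2 or Luc shRNA was measured on 1 Affymetrix array each. The authors made the probe set signals with MAS5, per the labels, and deposited them as intensity on a linear scale. The version, the settings and any scaling target are not given in the sources used here, and such settings move signals near the background most.

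The signals were used as deposited, without background correction or normalization, and changes were taken as log2 of a G9a signal over the Luc shRNA signal. Of 54675 probe sets, 41097 had 1 gene symbol in the array annotation, 1801 several and 11777 were not listed there. Symbols were updated through Entrez identifiers to RefSeq (GRCh38.p14), and 54 probe sets with 1 symbol had no match. The 3 probe sets that pair a HOX symbol with other symbols were left out, and all were under the filter. Genes, filters and thresholds are as described with the results. The members and gene lists were chosen with earlier results of these data known and support nothing by themselves. Every HOX gene past the filter was named, and of each other list up to 4 members past the filter, those furthest from 0 by the smaller of the changes. The other probe sets of named genes are extra values chosen after the data were seen.

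Alternatives were other filters, a floor, 3 other scalings, thresholds of 1.5-fold and 3-fold, other ways to join probe sets, each shRNA alone, and limma. Python 3.11.15, numpy 2.4.6, pandas 2.3.3, matplotlib 3.10.9, R 4.3.3 and limma 3.58.1 were used. The counting of calls was tested on simulated data.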

Additional observations from a re-analysis of the deposited data

How the results depend on the processing

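No paired analysis was possible because each condition has 1 array. Counts moved with the filter and the rule of size more than with the scaling. The 0 HOX genes past 2-fold with both shRNAs became 2 with no filter (HOXC8 and HOXC13), 3 at 1.5-fold (HOXD1, HOXA2 and HOXB3), 1 with the mean of all probe sets of a gene (HOXB13), 1 without shared-probe suffixes (HOXB8, higher), 4 with G9a shRNA1 alone, and 2 when probe sets were counted. The 4 with at least 1 shRNA became 8 with no filter, 1 with the filter at the 75th percentile (HOXB5), 2 with the filter on the mean signal, 2 with a floor at the median, 11 at 1.5-fold, 2 at 3-fold (HOXA2 and HOXD13) and 8 when probe sets were counted. It was 3 without shared-probe suffixes, where HOXD1 and HOXB5 lost the call and HOXB8, higher, gained it, and 5 after median centring, where HOXB6, lower, joined. Combining the 75th percentile with 1.5-fold, chosen after seeing the data, gave 6. The 20 genes past the filter became 9 at the 75th percentile.

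The median of the mean log2 fold change was -0.22 for HOX genes and -0.49 with G9a shRNA1 alone. For HOXB it was -0.46, and -0.18 with G9a shRNA2 alone. For HOXC it was 0.08, and 0.39 with G9a shRNA1 alone, and for positions 5 to 8 it was -0.44, with -0.75 and -0.13 for G9a shRNA1 and G9a shRNA2 alone. Averaging the probe sets turned HOXB8 to 0.42 from -0.46, by construction, since its probe sets oppose each other. Under median centring, quantile normalization and scaling to equal trimmed means the HOX median lay between -0.31 and -0.27, the HOXB median between -0.51 and -0.50 and the HOXC median between 0.00 and 0.04, and the 0 genes past 2-fold with both shRNAs remained 0.

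limma, with the 2 G9a arrays as 1 group and the lone Luc shRNA array assumed to vary like them, gave 0 of 30446 probe sets at an adjusted p under 0.05, 2915 at an unadjusted p under 0.05, and 0 and 1 (HOXD1) of the 20 HOX genes. The lowest adjusted p over all probe sets was 0.296, that of HOXD1 was 0.489 and that of EHMT2 0.536.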

Other observations

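Retinoic acid is a classical inducer of HOX genes, and CDX proteins act upstream of them. Of 17 measured genes of these groups, 12 passed the filter, with medians of -0.26 (G9a shRNA1) and 0.21 (G9a shRNA2). Past 2-fold with both shRNAs were 0 of 12, near the background of 2.57% higher and 1.66% lower. With either shRNA 4 of 12 were past 2-fold, against 12.8% of all genes past the filter. Each of those 4 genes passed the filter through a single array, so nothing is read from that count. DHRS3, which turns retinaldehyde back to retinol, read 1.47 and 9.44 in the G9a arrays and 18.5 in the Luc shRNA array. ALDH1A1, which makes retinoic acid, read 1.88 and 9.34 in the G9a arrays and 13.8 in the Luc shRNA array. All 4 of these G9a signals were under the median of all values. RARB, a retinoic acid receptor, read 12.7 and 8.50 in the G9a arrays and 5.93 in the Luc shRNA array, so that it passed the filter through G9a shRNA1 alone. CYP26B1, which degrades retinoic acid, had log2 fold changes of 0.53 and 0.37. CDX1, CDX2 and CDX4 were under the filter.

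Of 120 other homeobox genes, 53 passed the filter, with medians of -0.12 and 0.03. Past 2-fold with both shRNAs, 1 was higher (2.57% of all genes past the filter were) and 5 were lower (1.66% were). Since OTX1 passed the filter through G9a shRNA1 alone and EMX1, NKX3-2, PAX4 and HESX1 through Luc shRNA alone, nothing is read from these counts. OTX1, the one that was higher, read 13.9 and 5.99 in the G9a arrays and 0.76 in the Luc shRNA array. The 5 lower genes were EMX1, NKX3-2, PAX4, VAX2 and HESX1, with signals of 4.80 and 2.49, 9.53 and 4.71, 1.38 and 6.08, 9.35 and 13.9, and 7.32 and 4.11 in the G9a arrays, against 14.1, 23.8, 14.1, 30.0 and 14.7 in the Luc shRNA array. These signals lie within 3-fold of the filter or under it. VAX2 and HESX1 fall outside the naming rule and were named after their values were seen.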
